A study of Rattus norvegicus with 15 samples.

Results

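The 75 genes described here are the rat matrix metalloproteases (Mmp), the membrane-anchored ADAM proteases (Adam), the secreted ADAMTS proteases (Adamts), the ADAMTS-like proteins (Adamtsl) and the tissue inhibitors of metalloproteases (Timp). They were chosen by symbol alone, as every gene of the count table whose name starts with one of these family names and a number, which gave 75 of 28914 genes. There were 22 Mmp, 26 Adam, 19 Adamts, 4 Adamtsl and 4 Timp genes. RNA with a polyA tail came from the islets of Langerhans of rats of the Lewis strain. Surgery lay 10 weeks back and was either removal of 90% of the pancreas (partial pancreatectomy, Px, n = 10) or a sham operation (Sham, n = 5). The labels call the rats 4 to 5 weeks old, without saying at which point, carry an unexplained mark "Inc_YES" in the titles, and give each rat's average blood glucose with no unit. It was 88 to 96 in Sham, 104 to 211 in 7 Px rats (lower-glucose Px) and 416 to 464 in 3 Px rats (higher-glucose Px). No genetic change or drug is named for any group. Each library was taken as a separate rat, as its own number in the titles implies. P-values therefore measure the spread between these libraries.

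Matrix metalloproteases are zinc enzymes that cut collagen, elastin and other proteins outside the cell, and most are made as inactive precursors. ADAMs sit in the cell membrane and release growth factors, cytokines and receptors from the surface, while ADAMTS enzymes are secreted and cut proteoglycans, procollagens and fibrillin-associated proteins. TIMPs bind the active site of these enzymes and block it, so the balance of both classes sets how fast a tissue's matrix is remodelled. In the pancreas, much of this machinery is made by stellate cells, fibroblasts, macrophages and vessels around the islet rather than by the endocrine cells.

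Libraries held 12.2 to 18.4 M counts in Sham, 19.1 to 31.6 M in lower-glucose Px and 22.3 to 33.4 M in higher-glucose Px. Levels below are CPM (counts per M of the TMM-scaled total, mean ± SD), and changes are log2 fold changes of Px relative to Sham ± standard error. A gene was called at an adjusted p under 0.05. Levels of different genes are set side by side only after division by exon length (RPKM). The 8 beta cell markers, which check the labelled tissue, took up to 23.9% of the counts in a Sham library, and 7 of them fell in Px. Markers of other cells were higher in Px. The 12 macrophage markers summed to 29.6 to 68.6 CPM in Sham and 710 to 3730 CPM in Px. The 11 fibroblast and stellate markers summed to 155 to 464 and 1270 to 7270 CPM, and all markers of both lists were called higher, none being at 0 in every Sham library. The 14 acinar markers took 0.973% to 13.8% of the counts in Sham and 18.1% to 44.3% in Px. In bulk RNA, more cells of a type and more RNA per cell cannot be told apart. What part these other cells had in the results for the proteases was not tested, apart from the fits with marker scores given below.

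Of the 75 members, 32 had a mean of at least 1 CPM in Sham and 49 in Px. No counts were found in any library for 9 (Adam3a, Adam6, Adam7, Adam21, Adam24, Adam34, Mmp1, Mmp1b and Mmp27), and 15 more stayed under 1 CPM in every library. These 24 and 3 further genes (Mmp3, Mmp10 and Mmp13) did not pass the filter on low counts, which left 48 members for the test of Px against Sham.

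In Sham islets the highest level per exon length was that of Timp3, at 34.2 ± 4.35 RPKM (SD, n = 5). Timp3 encodes the inhibitor that is held in the matrix and also blocks ADAM10 and ADAM17. It was followed by Adam15 (21.4 ± 5.44 RPKM), Adam10 (18.2 ± 1.52 RPKM), Adam9 (11.6 ± 0.732 RPKM), Adamts10 (9.36 ± 3.7 RPKM) and Adam17 (9.15 ± 0.863 RPKM). Adam15 and Adam10 did not differ beyond their spread, nor did Adamts10 from its neighbours Adam9 and Adam17. Adam10 and Adam17 are the main surface sheddases, Adam10 of Notch and Adam17 of tumour necrosis factor. In lower-glucose Px the order was led by Timp1 (124 ± 69.1 RPKM, n = 7), Mmp12 (85.2 ± 81.5 RPKM), Mmp14 (50.5 ± 9.27 RPKM), Mmp2 (46.2 ± 19.5 RPKM), Timp2 (36.1 ± 6.57 RPKM) and Timp3 (34.5 ± 4.44 RPKM), whose spreads overlap between neighbours. In higher-glucose Px it was led by Timp3 (48.5 ± 9.85 RPKM, n = 3), Timp1 (40 ± 34 RPKM) and Mmp12 (35.5 ± 36.1 RPKM), again with overlapping spreads. Summed by role, the 4 inhibitors went from 44 ± 3.76 RPKM in Sham to 173 ± 73.3 RPKM in Px, and the 16 secreted Mmp genes from 3.95 ± 1.23 to 134 ± 99.3 RPKM. The sum for the 9 widely expressed ADAMs was 61.9 ± 3.65 RPKM in Sham and 101 ± 10.3 RPKM in Px.

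**Figure D1:**
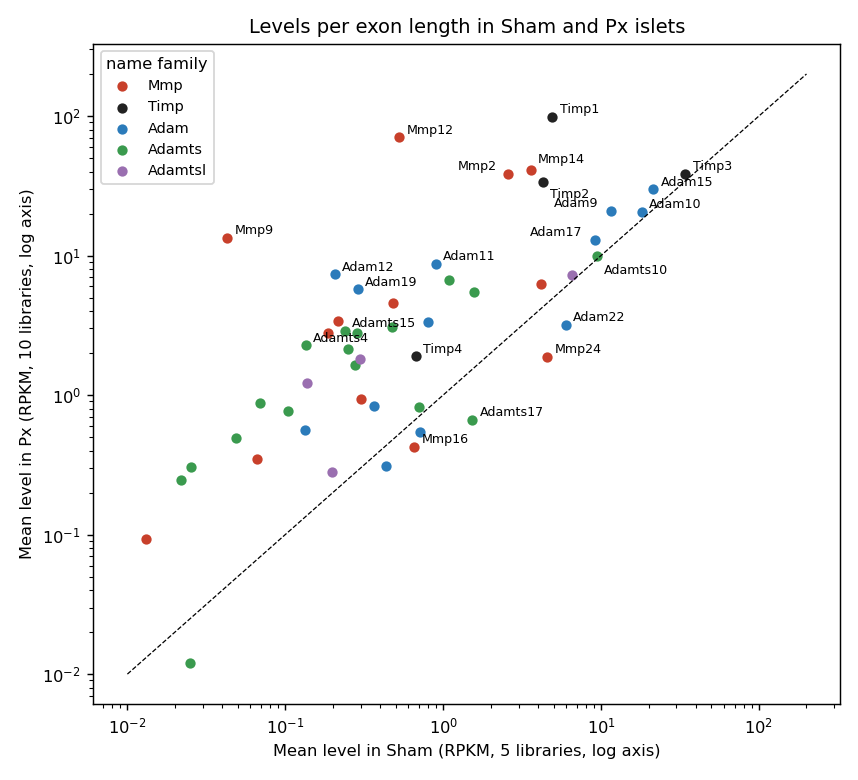
Mean level per exon length in Sham (x axis, RPKM, 5 libraries, log axis) and Px (y axis, RPKM, 10 libraries, log axis) for the 51 members with at least 0.01 RPKM in both groups, coloured by name family, with a dashed line at equal levels. Timp3 and Adam10 lie near the line, Mmp12, Mmp9 and Timp1 far above it, and Mmp24, Adam22 and Adamts17 below it.

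The comparison of Px with Sham asks how expression of these genes in islets differed after the operation. Of the 48 members tested, 36 were higher in Px (75%) and 4 were lower (8.33%), by edgeR's quasi-likelihood test with Benjamini-Hochberg adjustment over all genes. Among all 15199 genes tested, 34.5% were called higher and 30.2% lower. All Px libraries lay above all Sham libraries for 28 members (20.8% of all genes) and below them for 3 (16.4% of all genes). The median log2 fold change was 2.60 over these 48 members and 0.02 over all genes. A gene that passed the filter through its Px level alone had to differ, so this count and median describe the members and support nothing further. The counts by role below carry the same limit and stand beside the same shares of all genes, 34.5% higher and 30.2% lower. With libraries scaled by their totals the split was 31 higher and 8 lower, and with 8 endocrine granule genes as the scale 41 higher and 2 lower. Those scalings moved the median of all genes by −0.64 and 0.59, so that the sign of 11 members of small change depends on the scale: Adam1a, Adam4, Adam10, Adam15, Adam17, Adamts6, Adamts10, Adamtsl2, Adamtsl3, Mmp15 and Timp3.

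**Figure D2:**
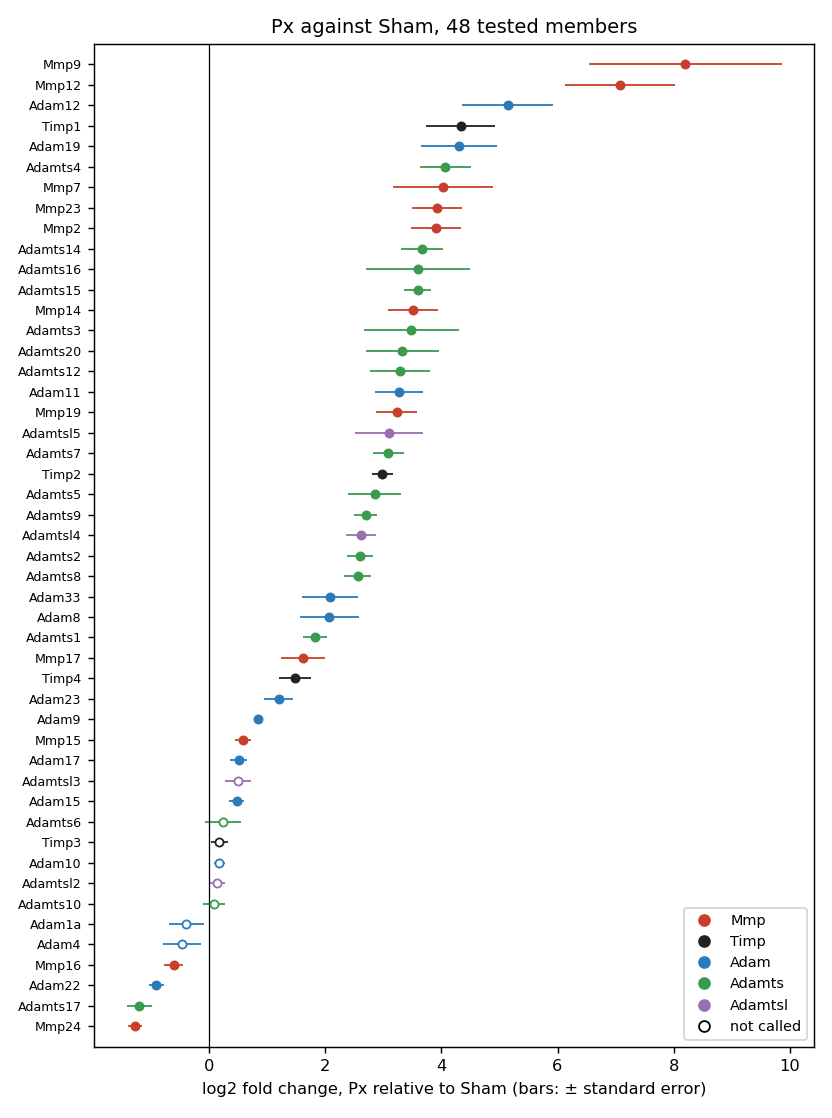
Log2 fold change of Px against Sham for the 48 tested members (x axis, log2 units, with bars of ± standard error), ordered by size on the y axis and coloured by name family, with open points for members not called. Of these, 36 were called higher and 4 lower; Mmp9 (8.20) and Mmp12 (7.08) lie farthest right, and Mmp24 (−1.28) farthest left.

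Among the 4 inhibitors, Timp1, Timp2 and Timp4 rose and Timp3 was not called. Timp1 (chromosome X, 1364786 to 1369384), an inducible inhibitor released in tissue injury, was 2.41, 2.69, 3.12, 3.38 and 6.62 CPM in the Sham libraries, and ranged from 11 to 201 CPM in Px with a median of 66.3. No Px library overlapped the Sham range, and the Px libraries themselves were spread widely. Its log2 fold change was 4.33 ± 0.60 (adjusted p = 1.03e-05 in edgeR). Timp2 (chromosome 10, 107338465 to 107386072), which also helps MMP14 activate the MMP2 precursor, was 4.39, 6.59, 7.91, 8.14 and 8.44 CPM in Sham, against 44 to 75.9 CPM in Px, with a median of 53.8. The Px libraries lay close together, far above Sham, and the rise was 2.98 ± 0.18 (edgeR adjusted p = 5.38e-09). Timp4, the inhibitor best known from heart and fat, rose from 1.14 ± 0.217 to 3.23 ± 1.23 CPM (1.48 ± 0.28). The Timp4 call was lost with the acinar score as a covariate (0.32, edgeR adjusted p = 0.632). Timp3 was at 59.7 ± 7.6 CPM in Sham and at 67.7 ± 15.7 in Px (0.18 ± 0.14, edgeR adjusted p = 0.287), a sign that turned with library totals (−0.47). The gene with the highest Sham level per exon length was thus the inhibitor for which Px and Sham libraries overlapped.

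Of the 16 secreted Mmp genes 5 could be tested, and all 5 rose (34.5% of all genes were called higher): Mmp2, Mmp7, Mmp9, Mmp12 and Mmp19. Mmp9 had at most 5 counts in a Sham library and Mmp7 at most 13. Both passed the filter through their Px levels, so that their rise was largely fixed in advance. Mmp2 (chromosome 19, 15542765 to 15570611), gelatinase A of fibroblasts and other stromal cells, was 5.61, 6.04, 6.36, 8.27 and 13.5 CPM in Sham, and 49.1 to 206 CPM in Px with a median of 105 (3.90 ± 0.43, edgeR adjusted p = 8.71e-07). Mmp12 (chromosome 8, 5606592 to 5616493), the elastase of macrophages, was 0.37, 0.394, 0.961, 1.11 and 1.89 CPM in Sham, and 17.5 to 369 CPM in Px with a median of 76.1 (7.08 ± 0.95, edgeR adjusted p = 7.43e-06). For both genes every Px library was above every Sham library, but the Mmp12 values ran over a far wider range between Px libraries. Mmp9 (chromosome 3, 161413298 to 161421520), gelatinase B of neutrophils and macrophages, was 0, 0.106, 0.172, 0.178 and 0.219 CPM in Sham, and 0.233 to 145 CPM in Px with a median of 17.1. Its groups did not overlap in CPM, but the lowest Px library, higher-glucose replicate 13, nearly touched the Sham range. That library had 4 counts of Mmp9 in a total of 31.9 M, against 0 to 5 counts in Sham libraries of 12.2 to 18.4 M. Its separation from Sham thus depends on the TMM scaling of a few counts. The change was 8.20 ± 1.66 (edgeR adjusted p = 0.000379) and was not called by limma voom (6.73, adjusted p = 0.201). Mmp19, found in vessels and myeloid cells, rose from 0.966 ± 0.232 to 9.13 ± 4.25 CPM (3.23 ± 0.35), and Mmp7, the epithelial matrilysin, from 0.241 ± 0.297 to 3.75 ± 4.38 CPM (4.03 ± 0.86). Among neutrophil markers, 3 of 7 could be tested and all 3 were higher (34.5% of all genes). The 7 summed to 0.582 to 1.03 CPM in Sham and 2.33 to 15.1 CPM in Px, with Elane at 0 in every Sham library. At these low Sham levels the filter was passed mainly through Px, so this count supports nothing further.

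A run of Mmp genes lies close together on chromosome 8 of the count table, and 10 of the 22 Mmp members are on that chromosome. Within it the stromelysins Mmp3 (5676665 to 5698579) and Mmp10 (5734348 to 5742243), which cut many matrix proteins and activate other MMP precursors, showed an uneven pattern. Mmp3 had 770 counts in lower-glucose replicate 8 and 235 in replicate 14, at most 4 in each of the other Px libraries, and 0 in all 5 Sham libraries. Mmp10 had 343 and 133 counts in the same 2 libraries, at most 3 in the other Px libraries, and 0 in Sham. A count of 0 allows up to 3 counts in a library, which is 0.131 to 0.172 CPM in Sham. In CPM the 2 libraries gave 26.6 and 11.2 for Mmp3 and 11.8 and 6.35 for Mmp10. These genes are close relatives whose reads can be split between them, so their separate values are uncertain. The collagenase Mmp13 stood at 5.59 CPM in replicate 8 and at 0.61 CPM or less in all other libraries. The same 2 libraries had the highest values for Mmp12 (369 and 356 CPM), Mmp9 (113 and 145 CPM) and Adam19 (98.3 and 66.8 CPM). Their summed macrophage markers were also the highest of all, at 3730 and 1800 CPM against 710 to 1050 CPM in the other Px libraries. Without these 2 libraries, an alternative chosen after seeing the data, the counts of members called in Px against Sham were again 36 and 4, with Mmp12 at 6.17 and Mmp9 at 7.16.

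**Figure D3:**
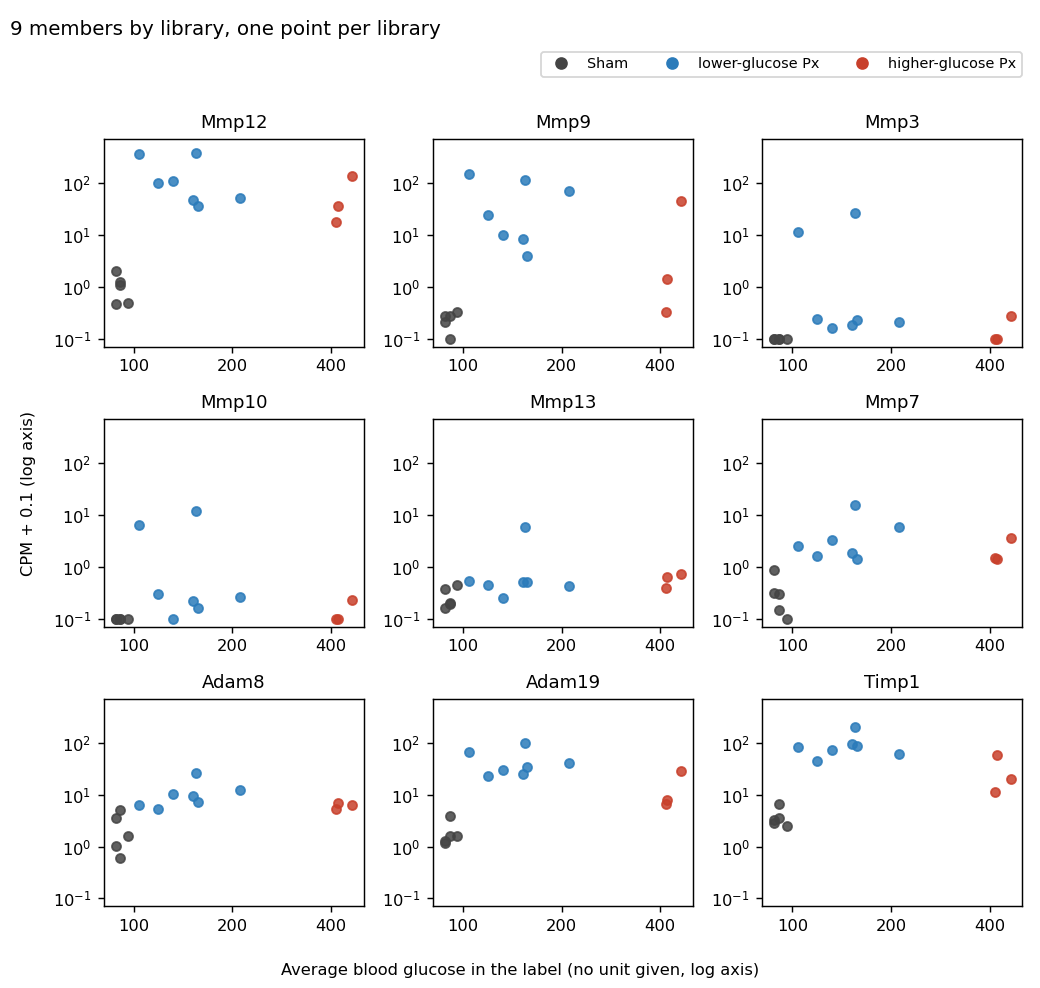
CPM plus 0.1 (y axis, log axis) of 9 members in each of the 15 libraries, placed by the average blood glucose in the label (x axis, no unit given, log axis) and coloured by group. Mmp3 and Mmp10 stand clear of 1 CPM in the same 2 lower-glucose libraries, replicates 8 and 14, while Mmp12, Adam19 and Timp1 are above every Sham library in all 10 Px libraries.

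Promoters of this chromosome 8 group are shown for the 5 members that reached 1 CPM in some library, which include both Mmp12, above Sham in every Px library, and Mmp3, Mmp10 and Mmp13, high in 1 or 2. Mmp8 is shown beside them as a member of the run without an AP-1 motif. The sequences run from 120 bases before to 20 bases after the start site, from RefSeq (build GRCr8, plus strand, chromosome 8), with capitals marking an AP-1 motif (TGANTCA, on either strand) and a TATA motif (TATAAA, on either strand). The windows are chr8:12866532-12866671 for Mmp12, chr8:12782709-12782848 for Mmp13, chr8:12925161-12925300 for Mmp3, chr8:12974587-12974726 for Mmp10, chr8:13132923-13133062 for Mmp7 and chr8:13008770-13008909 for Mmp8. These coordinates are not comparable with those of the count table.
Mmp12: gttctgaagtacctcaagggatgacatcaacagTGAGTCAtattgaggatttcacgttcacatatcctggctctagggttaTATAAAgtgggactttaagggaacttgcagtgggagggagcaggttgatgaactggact
Mmp13: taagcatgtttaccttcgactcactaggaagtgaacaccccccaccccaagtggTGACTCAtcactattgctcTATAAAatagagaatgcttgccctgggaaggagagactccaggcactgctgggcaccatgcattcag
Mmp3: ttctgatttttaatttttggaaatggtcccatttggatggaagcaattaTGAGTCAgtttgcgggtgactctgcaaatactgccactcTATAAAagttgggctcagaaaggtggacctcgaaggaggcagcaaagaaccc
Mmp10: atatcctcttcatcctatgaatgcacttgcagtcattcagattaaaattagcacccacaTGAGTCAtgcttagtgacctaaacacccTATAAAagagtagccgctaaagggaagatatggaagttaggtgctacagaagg
Mmp7: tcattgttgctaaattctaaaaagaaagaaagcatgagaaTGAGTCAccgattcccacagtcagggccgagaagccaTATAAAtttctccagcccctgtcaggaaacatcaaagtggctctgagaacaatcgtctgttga
Mmp8: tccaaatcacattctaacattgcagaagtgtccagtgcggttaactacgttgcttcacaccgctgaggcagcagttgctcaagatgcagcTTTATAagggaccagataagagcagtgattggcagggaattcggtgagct
The AP-1 motif, read by the Fos and Jun factors, ends 81 bases before the start site in Mmp12, 60 in Mmp13, 65 in Mmp3, 55 in Mmp10 and 74 in Mmp7. In these 5 windows it lies upstream of the TATA motif. Of the 10 Mmp promoters on the chromosome it was found in 7, and not at Mmp1b, Mmp8 or Mmp27. Promoters of 300 bases were matched for 51 of the 75 members (59 entries). The AP-1 motif was found in 43.8% of 16 Mmp promoters, 4.65% of the 43 other member promoters and 7.33% of all 33469 promoters. TATAAA was found in 56.2%, 18.6% and 14.2%. The 7 Mmp promoters with the AP-1 motif were all among the 10 on chromosome 8. The AP-1 motif was also found at Mmp1 and Adam24, which had no counts in any library, at Mmp20, which had at most 0.492 CPM, and at Adam19, where it ends 163 bases before the start site. A match describes letters and not binding.

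The 6 membrane-bound Mmp genes moved in both directions, with Mmp14, Mmp15, Mmp17 and Mmp23 higher and Mmp24 and Mmp16 lower. Mmp14 (chromosome 15, 33074441 to 33083655), the surface collagenase that activates the MMP2 precursor, was 4.65, 6.87, 6.94, 7.25 and 18.1 CPM in Sham, and 29.7 to 158 CPM in Px with a median of 109 (3.51 ± 0.43, edgeR adjusted p = 2.46e-06). Mmp24 (chromosome 3, 151310598 to 151355401), an MMP known mainly from neurons, was 15, 16.7, 18.6, 21 and 21.3 CPM in Sham, and 5.73 to 9.03 CPM in Px with a median of 7.57. Each of the 10 Px libraries was lower than all of Sham, and the change was −1.28 ± 0.12 (edgeR adjusted p = 1.43e-07). Mmp16 (chromosome 5, 31568419 to 31810484) fell from 2.31 ± 0.3 to 1.51 ± 0.305 CPM (−0.61 ± 0.17, edgeR adjusted p = 0.00521), with 9 of 10 Px libraries below all Sham libraries. Its call was lost under endocrine scaling (−0.01) and with the acinar score (−0.63). Mmp23 rose by 3.92 ± 0.43 and Mmp17, an MMP tethered by a lipid anchor, by 1.62 ± 0.38, while Mmp15 went from 16.8 ± 2.8 to 25.2 ± 4.8 CPM (0.59 ± 0.14, but −0.10 by library totals).

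Of the 9 widely expressed proteolytic ADAMs 8 were tested, and 7 rose. Adam12 (chromosome 1, 205956342 to 206282575), made by activated fibroblasts and growing muscle, was 0.159, 0.344, 0.481, 0.489 and 1.62 CPM in Sham, and 2.39 to 56.5 CPM in Px with a median of 18.4 (5.14 ± 0.78, edgeR adjusted p = 2.33e-05). Adam19 (chromosome 10, 31146107 to 31240582), a sheddase of neuregulin, rose from 1.82 ± 1.15 to 35.9 ± 27.7 CPM (4.30 ± 0.65). Adam8, a leukocyte sheddase, went from 2.24 ± 1.86 to 9.33 ± 6.17 CPM (2.07 ± 0.51). In these 3 genes no Px library fell within the Sham range. Adam33, known from airway mesenchyme, rose by 2.08 ± 0.48 at about 1.34 CPM in Px.

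The 4 tested ADAMs of this group with the highest Sham levels had smaller changes than the other 4. Adam9, which sheds several growth factor ligands, rose from 36 ± 2.27 to 65.1 ± 6.3 CPM (0.85 ± 0.08, edgeR adjusted p = 2.15e-07, but 0.22 and not called by library totals), and all 10 Px libraries were above Sham. Adam17 went from 37.5 ± 3.53 to 53.2 ± 11.9 CPM (0.51 ± 0.14, −0.09 by library totals), and Adam15 from 65 ± 16.5 to 90.4 ± 11.2 CPM (0.48 ± 0.13, −0.16 by library totals). The Adam15 call was also lost with the acinar score (0.3, edgeR adjusted p = 0.404). Adam10 (chromosome 8, 77107536 to 77237483) had 68.8 ± 5.74 CPM in Sham, had 78.1 ± 9.24 in Px, and was not called (0.18 ± 0.09, edgeR adjusted p = 0.0816). It was called lower by library totals (−0.49) and higher by endocrine scaling (0.77). The Adam15 exons share 209 of 3030 bases with a gene on the opposite strand, and no source used here states the strand setting of the counting.

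The 3 ADAMs that lack a working protease and act in neuronal adhesion went different ways. Adam22 (chromosome 4, 22859622 to 22996645), the receptor of the LGI1 ligand at synapses, was 12.2, 12.3, 13.2, 15.2 and 16.8 CPM in Sham, and 5.56 to 9.74 CPM in Px with a median of 7.1. The groups did not overlap, and it fell by 0.91 ± 0.13 on the log2 scale (edgeR adjusted p = 1.39e-05), a call lost under endocrine scaling (−0.34, edgeR adjusted p = 0.0574). Adam11 (chromosome 10, 90731148 to 90749217) was 1.64, 2.12, 2.91, 8.27 and 8.59 CPM in Sham, against 28 to 75.9 CPM in Px, with a median of 46 (3.27 ± 0.41, edgeR adjusted p = 3.49e-06). Every Px library lay above Sham, where 2 of the 5 libraries were well above the other 3. Of the Adam11 exons 108 of 5220 bases are shared with a gene on the opposite strand. Adam23 rose from 1.05 ± 0.351 to 2.41 ± 0.593 CPM (1.20 ± 0.25), a call that library totals ended (0.51). The Adam23 call was also lost with the acinar score (0.79, edgeR adjusted p = 0.229). Of 14 testis-type and other ADAMs, most known from sperm, only Adam1a (−0.39 ± 0.30) and Adam4 (−0.47 ± 0.33) could be tested, and neither was called.

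All 7 proteoglycan-cutting Adamts genes rose (34.5% of all genes were called higher). Of these, Adamts5 and Adamts20 had at most 14 counts in a Sham library and passed the filter through their Px levels. Adamts15 (chromosome 8, 31977001 to 32000378), a cutter of the proteoglycan versican, was 1.07, 1.09, 1.15, 1.32 and 2.63 CPM in Sham, and 14 to 22.6 CPM in Px with a median of 16.2 (3.59 ± 0.23, edgeR adjusted p = 7.22e-09). The Px libraries lay close together and far above Sham. Adamts4, an aggrecan cutter, rose from 0.761 ± 0.346 to 12.8 ± 6.11 CPM (4.07 ± 0.44), and Adamts9 from 3.79 ± 0.984 to 24.6 ± 5.67 CPM (2.70 ± 0.20). Adamts1 rose by 1.82 ± 0.21, Adamts5 by 2.85 ± 0.46, Adamts8 by 2.56 ± 0.23 and Adamts20 by 3.33 ± 0.63. All 3 procollagen-cutting genes, whose enzymes trim new collagen so that it can form fibrils, also rose: Adamts2 from 7.17 ± 1.8 to 43.5 ± 11.1 CPM (2.60 ± 0.23), Adamts14 by 3.67 ± 0.36 and Adamts3 by 3.48 ± 0.82. Adamts14 had at most 10 counts in a Sham library and Adamts3 at most 4, so that both also passed the filter through Px.

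Of the 9 remaining Adamts genes 6 were tested, with 3 higher, 1 lower and 2 not called. Adamts17 (chromosome 1, 127802978 to 128124171), a protease linked to fibrillin microfibrils, was 3.79, 4.29, 5.45, 5.85 and 6.36 CPM in Sham, and 1 to 3.49 CPM in Px with a median of 2.17. It was lower in every Px library than in every Sham library (−1.20 ± 0.21, edgeR adjusted p = 9.81e-05). Adamts7 (3.09 ± 0.27), Adamts12 (3.29 ± 0.51) and Adamts16 (3.60 ± 0.89) rose. Adamts10, also linked to fibrillin and the Adamts gene of highest Sham level per exon length, was 41 ± 16.2 and 43.4 ± 7.09 CPM (0.08 ± 0.19), and Adamts6 had a log2 fold change of 0.24 ± 0.31. Among the ADAMTS-like genes, which have no protease part, Adamtsl4 (2.61 ± 0.26) and Adamtsl5 (3.10 ± 0.59) rose. Adamtsl2 had 24.1 ± 2.9 CPM in Sham, against 26.6 ± 4.94 in Px (0.14 ± 0.13, −0.46 by library totals), and Adamtsl3 had 0.50 ± 0.23.

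Of 50 further genes of the same pathways (plasminogen activators, proprotein convertases, partners of ADAM10 and ADAM17, cathepsins and substrates), 41 were tested, 31 were called higher (34.5% of all genes) and 4 lower (30.2% of all genes), and the median was 1.47. By library totals 24 were higher and 8 lower, and by endocrine scaling 38 and 1. Those lower were Tspan5, Tspan33, Lgi1 and Reck, of which only Lgi1 was also called lower by endocrine scaling. Tspan5 and Tspan33 encode tetraspanins that escort ADAM10 to the surface, and they fell by 0.91 ± 0.09 and by 0.57 ± 0.11 on the log2 scale. The other tetraspanins listed did not fall with them. Tspan15 rose by 0.84 ± 0.14, and Tspan14 (−0.01 ± 0.08) and Tspan17 (0.12 ± 0.15) were not called. Reck, a membrane inhibitor of MMPs, fell by 0.22 ± 0.09. By endocrine scaling Tspan5 (−0.31) and Tspan33 (0.02) were not called and Reck was called higher (0.36, edgeR adjusted p = 0.00209). Lgi1, the ligand of ADAM22, went from 3.76 ± 0.654 to 0.939 ± 0.21 CPM (−1.99 ± 0.18, edgeR adjusted p = 1.26e-07). It is below the level set for naming these genes and was picked out after its values were seen. On the other side Plau, the urokinase that makes plasmin, rose by 2.81 ± 0.30, Rhbdf1, a partner of ADAM17, by 2.51 ± 0.19, Ctss, a macrophage cathepsin, by 3.93 ± 0.32, and Pcolce, an enhancer of procollagen trimming, by 2.24 ± 0.20 (edgeR adjusted p at most 6.43e-07 for each).

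The marker scores moved with the groups, which limits what a fit with them can show. With the macrophage score as a covariate no member was called, and no gene at all, with 11 members and 1402 genes at an unadjusted p under 0.05 by edgeR. The groups alone accounted for 0.95 of the variance of that score, and the median standard error of the members grew from 0.31 to 1.21. With the acinar score 35 members and 6096 of all genes were called, against 40 and 9838 without a covariate. With the fibroblast score, a covariate added after seeing the data, 14 members and 3203 genes were called, and Adam12 (−1.31), Adamts12 (−1.15), Mmp14 (−0.09) and Timp1 (−0.12) changed sign without being called.

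The same comparison was made with each glucose group, and both share the 5 Sham libraries. In lower-glucose Px 37 of 49 members tested were higher and 4 lower (33.6% and 30% of all genes). In higher-glucose Px 35 were higher and 5 lower (32.2% and 25.5% of all genes), with 24 higher and 11 lower by library totals. The log2 fold changes in lower- and higher-glucose Px were 7.35 ± 0.93 and 6.09 ± 0.94 for Mmp12, and 8.54 ± 1.63 and 6.78 ± 1.75 for Mmp9. The higher-glucose value of Mmp9 rested mainly on replicate 15, at 45.1 CPM, against 0.233 CPM in replicate 13 and 1.3 CPM in replicate 19. Calls differed for 7 members, namely Adam4, Adam10, Adam17, Adamts3, Adamts16, Mmp13 and Timp3. Adamts3 was 3.86 ± 0.67 in lower- and 1.59 ± 0.87 in higher-glucose Px, and Adam17 was 0.60 ± 0.13 and 0.23 ± 0.16. Only for Timp3 among these 7 was the difference between the Px groups itself called, as given next.

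Higher- against lower-glucose Px asks what accompanied the higher glucose among operated rats. Of 49 members tested 2 were higher (Timp4 and Timp3) and 3 lower (Adam12, Adamts12 and Mmp14) in higher-glucose Px, which is 4.08% and 6.12% of the members against 3.29% and 1.59% of all genes. The groups did not overlap for 3 members in the higher direction (5.39% of all genes) and 6 in the lower (4.46% of all genes). Adam12 was 17.7 to 56.5 CPM with a median of 27.1 in lower-glucose Px, and 2.39, 4.54 and 8.62 CPM in higher-glucose Px. These groups did not overlap (−2.48 ± 0.50, edgeR adjusted p = 0.00916), and all 3 higher-glucose libraries were still above Sham. Mmp14 was 93.2 to 158 CPM with a median of 125 in lower-glucose Px, and 29.7, 48.4 and 61.6 CPM in higher-glucose Px (−1.40 ± 0.33, edgeR adjusted p = 0.0226). Adamts12, a protease of cartilage and stroma, was 16.6 to 54.3 CPM with a median of 27.6, and 6.88, 9.27 and 10.4 CPM (−1.77 ± 0.39, edgeR adjusted p = 0.0161). All 3 genes were thus intermediate between Sham and lower-glucose Px.

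Of the 4 inhibitors, Timp4 and Timp3 were called higher, and Timp1 and Timp2 were not called. Timp4 was 1.52 to 3.29 CPM with a median of 2.63 in lower-glucose Px, and 4.33, 4.48 and 5.54 CPM in higher-glucose Px (0.91 ± 0.22, edgeR adjusted p = 0.0289), with no overlap. Its call was lost by library totals (0.42, edgeR adjusted p = 0.256), by endocrine scaling (0.68, edgeR adjusted p = 0.121), with the acinar score (0.76, edgeR adjusted p = 0.051) and with the fibroblast score (0.55, edgeR adjusted p = 0.669). Timp3 was 49.3 to 74.8 CPM with a median of 61.3, and 69, 82.4 and 103 CPM (0.49 ± 0.13, edgeR adjusted p = 0.0456), where 1 of the 3 higher-glucose libraries lay within the lower-glucose range. The Timp3 difference was 0 by library totals and 0.23 by endocrine scaling, and neither was called. Its call was also lost by DESeq2 size factors, with no filter, by limma voom and with the acinar, macrophage or fibroblast score. Adjusted p in these fits ran from 0.0505 (limma voom) to 0.531 (edgeR with the fibroblast score). Timp1 (−1.64 ± 0.50, edgeR adjusted p = 0.0727) and Timp2 (−0.34 ± 0.18, edgeR adjusted p = 0.256) had negative values, and the median of the 4 was 0.07. Each of the 5 calls ended when some single library was left out. Adam12 lost its call without higher-glucose replicate 13 or 19 (edgeR adjusted p = 0.0637 and 0.0522), Mmp14 without the same libraries (0.142 and 0.0766), and Adamts12 without replicate 13, 15 or 19 (0.102, 0.0655 and 0.0513). Timp4 lost it without lower-glucose replicate 10 (edgeR adjusted p = 0.0551) or higher-glucose replicate 13, 15 or 19 (0.157, 0.0751 and 0.0623). Timp3 lost it without lower-glucose replicate 2, 8, 10 or 11, higher-glucose replicate 13 or 19, or Sham replicate 23, 25, 26 or 27, at edgeR adjusted p of 0.0508 to 0.23.

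Fibroblast markers moved in the same direction as Adam12, Adamts12 and Mmp14, and opposite to Timp3 and Timp4. Of 11 fibroblast and stellate markers 4 were lower in higher- than in lower-glucose Px and 0 higher (median −1.23), against 1.59% and 3.29% of all genes. Their sum was 1270 to 2100 CPM in higher-glucose and 2930 to 7270 CPM in lower-glucose Px. With the fibroblast score as a covariate 0 members were called between these groups by edgeR, with 6 at an unadjusted p under 0.05. Over all genes the calls went from 764 to 34 with that covariate, with 1385 at an unadjusted p under 0.05. With the macrophage score 5 members and 1006 genes were called, and with the acinar score 3 members and 507 genes. Whether cell content caused the differences between these groups was not tested. Over all 49 members, 35 had a negative and 14 a positive log2 fold change, with a median of −0.37 against −0.02 over all genes. DESeq2 called 11 members lower and 3 higher (Timp3, Timp4 and Mmp17), and limma voom 6 and 2 (Timp4 and Mmp17). Over all genes DESeq2 called 1363 and limma voom 850. Timp3 was not called by limma voom (adjusted p = 0.0505). Mmp17 was not called in the main fit (1.11 ± 0.31, edgeR adjusted p = 0.0516).

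**Figure D4:**
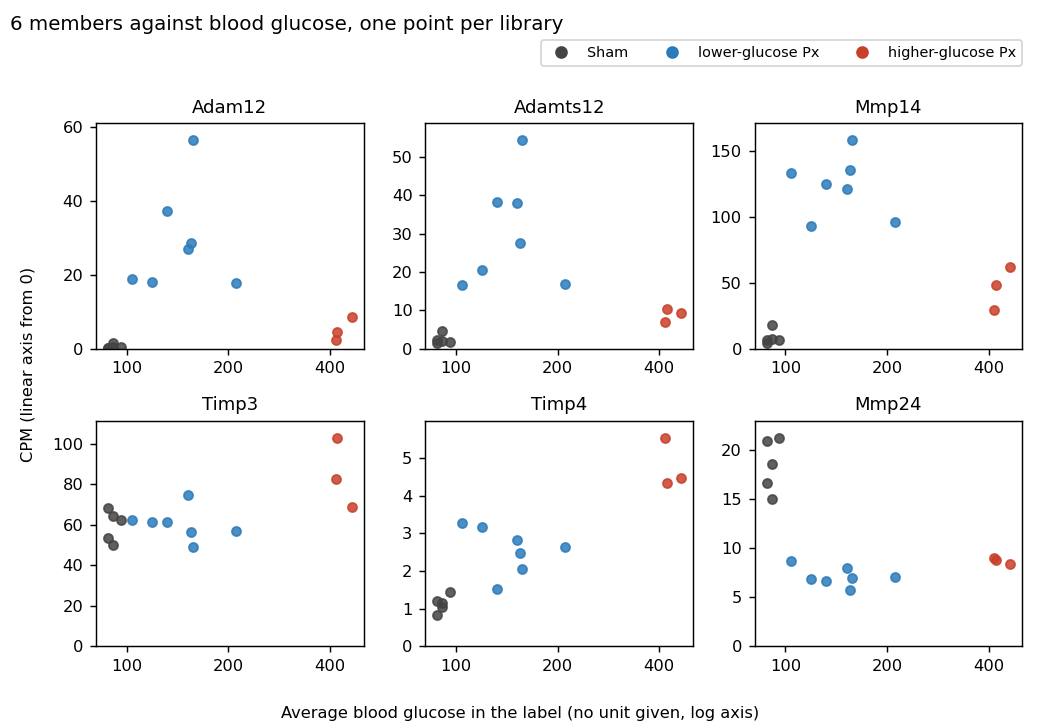
CPM (y axis, linear from 0) of 6 members in each library against the average blood glucose in the label (x axis, no unit given, log axis), coloured by group. Adam12, Adamts12 and Mmp14 peak in the 7 lower-glucose Px libraries, Timp4 is highest in the 3 higher-glucose libraries, and Mmp24 is lower than in Sham throughout Px.

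Within the 7 lower-glucose Px rats, whose glucose spanned 104 to 211, no member was called for a relation with glucose. Of 51 members tested for a slope on log2 glucose 0 were called by edgeR, and 0 of all 15695 genes, with 1 member and 1432 genes at an unadjusted p under 0.05. That member was Adamts20, at a slope of 1.93 ± 0.57 (unadjusted p = 0.00922 in the edgeR fit across all genes). DESeq2 and limma voom also called 0 members, with 2 and 1 at an unadjusted p under 0.05, and over all genes DESeq2 called 101 and limma voom 0. With 7 libraries this does not show that the members were unrelated to glucose.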

How the data were processed

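Islet RNA of 15 rats was sequenced. The authors deposited a table of raw counts for 28914 genes, whose other columns, per the file headers, give positions and exon length in bases. FastQC, Subread, featureCounts and limma were used, per the submitters' processing notes. No source used here states the genome build, the annotation or the strand setting. Directional libraries are named in the labels' protocols. The authors' comparison table was not used here.

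Low genes were removed by filterByExpr (at least 10 counts, and 15 in total), and counts were scaled by TMM and tested with the two-sided quasi-likelihood test of edgeR 4.0.16 in R 4.3.3, with Benjamini-Hochberg adjustment over all genes tested. All Px libraries were compared with Sham in a model of 2 groups, and the glucose groups in a single model of 3, with the boundary at a glucose of 300, and the slope from the 7 lower-glucose libraries. RPKM is CPM divided by exon length in kb. Alternatives were DESeq2 1.42.0, limma 3.58.1 (voom), other scalings, filters and covariates, and leaving out each library. Scores are mean log2 CPM of markers (prior count 2). On simulated counts the Px against Sham fit (15074 genes) recovered 49.5% of changes of 1 and 100% of 2 on the log2 scale, and the higher- against lower-glucose fit (15145 genes) 28% and 96%. The simulation gave all genes the same dispersion and no shift in cell composition. These shares therefore do not hold for members that varied more between libraries, such as Mmp9 (standard error 1.66 in Px against Sham).

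Members, marker lists and related genes were chosen with earlier results of these data known. Named with full values are a panel of members and, in each comparison, the 5 called members of smallest p in each direction with a mean of at least 1 CPM; every other member may be named with its level or change. Related genes may be named if called with a mean of at least 5 CPM, up to 8 in each direction. Tspan14, Tspan15 and Tspan17 are named outside this rule, beside Tspan5 and Tspan33. Endothelial (5 of 6 tested), duct (5 of 7), lymphocyte (4 of 4) and Schwann cell and nerve markers (3 of 4) were also called higher in Px, against 34.5% of all genes.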

Additional observations from a re-analysis of the deposited data

Results flagged for a closer look

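A library stood apart from the rest of its group for 15 of 67 sets of values, where its gap to the nearest other library was large relative to the group's range (Dixon's criterion, groups of 5 and 7). Chance alone gives about 1 in 20 for independent, normally distributed values. These sets share the same libraries and hold CPM without log transformation, so that rate need not apply here. Sham replicate 24 was highest in 6 of them, at 1.62 CPM for Adam12, 3.84 for Adam19, 4.6 for Adamts12, 2.63 for Adamts15, 18.1 for Mmp14 and 6.62 for Timp1. Its summed fibroblast markers, 464 CPM, were also the highest in Sham. Lower-glucose Px replicate 8 was highest in 7, at 82.1 CPM for Adam17, 25.6 for Adam8, 5.94 for Adamts5, 5.59 for Mmp13, 26.6 for Mmp3, 15.6 for Mmp7 and 201 for Timp1. Its summed macrophage markers, 3730 CPM, were the highest of all libraries. The last 2 were Adamts1 in Sham replicate 26 (8.54 CPM) and Adamts9 in lower-glucose Px replicate 4 (36.8 CPM).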

How the results depend on the processing

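No paired analysis was possible because Px and Sham libraries share no replicate numbers. For Px against Sham, 36 higher members became 0 with the macrophage score and 14 with the fibroblast score (added after seeing the data, as was leaving out lower-glucose replicates 8 and 14 together), and 4 lower became 8 by library totals, 2 by endocrine scaling and 0 with either score. For lower-glucose Px against Sham, 37 higher became 0 with either score, and 4 lower became 2 by endocrine scaling and 0 with either score. Over all genes, the calls of that comparison also went to 0 with either score, from 9949. For higher-glucose Px against Sham, 35 higher became 0 (macrophage) and 5 (fibroblast), and 5 lower became 11 by library totals, 3 by endocrine scaling, 2 with the acinar score and 0 with the other scores. Over all genes, the calls of this comparison went from 9043 to 0 (macrophage), 1422 (fibroblast) and 4528 (acinar). Between the Px groups, 2 higher became 1 by DESeq2 size factors or with no filter, and 0 by library totals, by endocrine scaling or with the acinar or fibroblast score, and 3 lower became 11 by DESeq2, 6 by limma voom and 0 with the fibroblast score. Of the related genes, 31 higher became 0 (macrophage) and 10 (fibroblast), and 4 lower became 8 by library totals, 1 by endocrine scaling, 0 (macrophage) and 2 (fibroblast).

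Leaving out 1 library at a time gave 36 to 37 higher and 4 lower for Px against Sham, 36 to 39 and 4 for lower-glucose Px, 31 to 36 and 4 to 5 for higher-glucose Px, and 31 to 33 and 3 to 4 for the related genes. Between the Px groups it gave 0 to 3 higher and 0 to 5 lower, with 0 lower without higher-glucose replicate 13, 5 lower without lower-glucose replicate 11, and 0 higher without lower-glucose replicate 10 or higher-glucose replicate 13 or 19. It was 1 higher without lower-glucose replicate 2 or 11, higher-glucose replicate 15 or Sham replicate 25 or 27. The slope gave 0 calls throughout.

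Signs changed for single genes as follows, as log2 fold changes of Px against Sham. By library totals: Adam10 −0.49, Adam15 −0.16, Adam17 −0.09, Adamtsl2 −0.46 and Timp3 −0.47. By endocrine scaling: Adam4 0.10. With the acinar score: Adam10 −0.08, Adam4 0.88 and Timp3 −0.02. With the macrophage score: Adam15 −0.21, Adam17 −0.42, Adam19 −0.93, Adam22 0.11, Adam4 0.73, Adam8 −0.40, Adamts5 −1.04, Mmp12 −1.91, Mmp19 −0.47 and Mmp7 −1.22. With the fibroblast score: Adam12 −1.31, Adam17 −0.13, Adamts12 −1.15, Adamtsl2 −0.58, Mmp14 −0.09 and Timp1 −0.12. In lower-glucose Px: Adam10 −0.40 (library totals), −0.08 (acinar) and −0.12 (macrophage), Adam17 −0.08 (macrophage), Adam4 0.38 (endocrine), 0.75 (acinar), 1.58 (macrophage) and 0.12 (fibroblast), Adamts16 −2.13 (fibroblast), Adamts3 −1.23 (macrophage) and Mmp13 −7.11 (macrophage). Timp3 there was −0.47 by library totals, 0 by DESeq2 size factors, by DESeq2 and with the acinar score, −0.05 to 0.06 with 1 library left out, and below 0 without 3 of them: −0.05 without lower-glucose replicate 4, −0.03 without Sham replicate 23 and −0.05 without Sham replicate 24. In higher-glucose Px: Adam10 −0.74, Adam17 −0.77 and Timp3 −0.47 (library totals), Adam17 −0.40, Adam4 0.41, Adamts3 −2.96 and Mmp13 −6.83 (macrophage), and Adamts16 −1.57, Adamts3 −0.94 and Mmp13 −0.23 (fibroblast). The cause was not tested. Depth limits the 24 members under 1 CPM, for which no difference was detectable at this depth under the filter.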

Other observations

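With no filter on low counts, 5 further members were called higher in Px against Sham. They include Mmp3 (edgeR adjusted p = 0.0337), Mmp10 (edgeR adjusted p = 0.0334) and Mmp13 (edgeR adjusted p = 0.0349), whose uneven counts are described above. Adamts19 (2.73, edgeR adjusted p = 0.00675) and Mmp8, the neutrophil collagenase (2.71, edgeR adjusted p = 0.0209), were the other two, at 0.43 CPM or less and 0.61 CPM or less in every library. Mmp8 had 14 counts in each of lower-glucose replicate 2 and higher-glucose replicate 15, 11 in lower-glucose replicate 14, and at most 1 in each Sham library. Replicate 14 was thus among its higher libraries, as for Mmp3 and Mmp10, while replicate 8 had 7 counts of Mmp8.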
